A study of Mus musculus with 5 samples.

Results

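Transcripts of 7 genes were examined in macrophages that had been cocultured with breast cancer cells. They encode 5 receptors of the TREM family (triggering receptors expressed on myeloid cells), *Trem1*, *Trem2*, *Trem3*, *Treml2* and *Treml4*, and 2 adaptor proteins, *Tyrobp* (DAP12) and *Hcst* (DAP10). The genes were given by name, with earlier results of these data known, and each symbol was matched to its Entrez gene. They are 7 of 17018 genes with a count in at least 1 library, and all 7 were among the 12576 genes kept for testing by edgeR's low-count filter.

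The 5 RNA-Seq libraries came from bone marrow–derived macrophages (BMDMs) of the strain Balb/c. The methods describe BMDMs as grown from mice of 6 to 12 weeks in M-CSF. Female mice are named in the paper's results, for BMDMs of its cocultures. For 48 hours the BMDMs shared medium across a porous membrane with 4T1 cells, a mouse mammary carcinoma line. WT 4T1 cells were used for 2 libraries and *Adam17*-/- 4T1 cells for 3. The BMDMs themselves carried no targeted deletion. All 3 *Adam17*-/- libraries have the same knock-out designation, 2.8, in the labels, and what *Adam17* does cannot be told apart from whatever else sets this line off. Nothing states that replicates were separate cultures or mice, so p-values measure only the spread between these samples, which may be technical. Because the knock-out was in the cancer cells, *Adam17* in the BMDMs does not check the labels. It was 198 and 200 CPM (counts scaled to the TMM-normalized library total) in the WT libraries and 152, 164 and 161 CPM in the *Adam17*-/- libraries.

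Many TREM receptors, though not all, have short cytoplasmic tails and rely on an adaptor for signaling. A charged residue in the membrane pairs most of them with TYROBP, whose ITAM (immunoreceptor tyrosine-based activation motif) is phosphorylated by SRC family kinases and then binds the kinase SYK. HCST carries instead a motif that recruits phosphoinositide 3-kinase. In macrophages, TREM1 is known for amplifying inflammatory responses, while TREM2 binds lipids and lipoproteins and supports phagocytosis and survival. Both receptors are shed from the surface by proteases, TREM2 by ADAM proteases.

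The coding sequences of the adaptor motifs show how the adaptors differ, and the alternative exon of *Trem2* shows which bases set its transcripts apart. All were read from the GRCm38 reference annotation (GENCODE), which is not of the strain used here. In the adaptor lines, capitals mark the tyrosine codons and the leucine or methionine codon of each motif, and in the *Trem2* line they mark the bases present only in the longer transcript.

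*Tyrobp* ITAM: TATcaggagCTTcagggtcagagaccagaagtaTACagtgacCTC

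*Hcst* tail: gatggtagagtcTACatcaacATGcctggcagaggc

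*Trem2* exon: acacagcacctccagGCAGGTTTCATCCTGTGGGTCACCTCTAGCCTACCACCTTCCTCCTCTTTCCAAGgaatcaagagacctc

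The ITAM lies at codons 92 to 106 of the 114 codons of *Tyrobp*, with 7 codons between its first and its last stretch. It is split over exons 4 and 5 of 5, at chr7:30415670-30417382 on the forward strand. The *Hcst* line covers its last codons, 68 to 79, in exon 4 of 4, at chr7:30417809-30417844 on the reverse strand, with the motif at codons 72 to 75. The coding sequence of *Hcst* held 0 matches to the ITAM pattern and that of *Tyrobp* held 0 matches to the pattern of *Hcst*. The capitals in *Trem2* are 55 coding bases at chr17:48351691-48351745 in exon 4 of the longer transcript, printed with 15 bases on either side. The longer transcript has 249 coding codons and the shorter one 227.

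The libraries held 14658689 to 20788358 counts, so that 3 counts, taken as the floor, correspond to 0.157 to 0.197 CPM. WT replicates differed more from each other (chi-square per degree of freedom 25.7) than *Adam17*-/- replicates (5.22 to 6.32). Macrophage markers were abundant in all libraries, with a summed level over 8 genes of 27659 to 28416 CPM in the WT and 17945 to 19906 CPM in the *Adam17*-/- libraries. Of these, 6 fell and 2 (*Csf1r* and *Mertk*) did not pass the test, where 16.8% of all genes tested fell and 14.9% rose. The same background holds for the other marker lists. Over 12 neutrophil and precursor markers the summed level was 382 to 480 CPM in the WT and 1286 to 1474 CPM in the *Adam17*-/- libraries, and 10 rose. *Mpo* and *Ctsg* did not pass, and *Adam17*-/- replicate 2 was highest in both, at 63.2 and 4.80 CPM. Of the 5 dendritic cell markers tested, 2 rose (summed level 8.93 to 12.6 against 19.6 to 24.5 CPM), and of the 5 nonclassical monocyte markers tested, 2 rose and 1 fell (457 to 503 against 427 to 560 CPM). Summed B cell markers were low (1.84 to 4.29 against 2.74 to 4.74 CPM), and neither of the 2 tested passed. Summed NK and T cell markers reached at most 0.688 CPM, and none was tested. The summed level of the epithelial markers was 10.99 to 12.6 CPM in the WT and 11.8 to 13.8 CPM in the *Adam17*-/- libraries, most of it *Cdh1*, which did not pass. *Epcam*, *Krt8*, *Krt14* and *Cldn4* did not exceed the floor in any library, *Krt18* had 5 to 8 counts, and *Krt5* is not listed. The part of any of these cell types in the results that follow was not tested.

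Per transcript length, the family ranged over about 3 orders of magnitude. On the scale of FPKM (fragments scaled to transcript length and library size), the order in the WT libraries was *Tyrobp* (870 ± 5.59; SD, n = 2), *Trem2* (349 ± 16.96), *Trem1* (50.9 ± 8.14), *Treml2* (27.7 ± 1.92), *Hcst* (9.30 ± 0.679), *Trem3* (3.56 ± 0.0919) and *Treml4* (0.830 ± 0.113). The order was the same in the *Adam17*-/- libraries. *Trem1* and *Treml2* were neighbors whose FPKM ranges overlapped there, at 33.2 to 41.6 and 29.1 to 34.9, whereas all other neighbors were apart in both groups. Among all genes tested, *Tyrobp* stood at the 99.7th percentile of FPKM and *Trem2* at the 98.8th. *Hcst*, the other adaptor, was at the 51.5th.

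**Figure D1:**
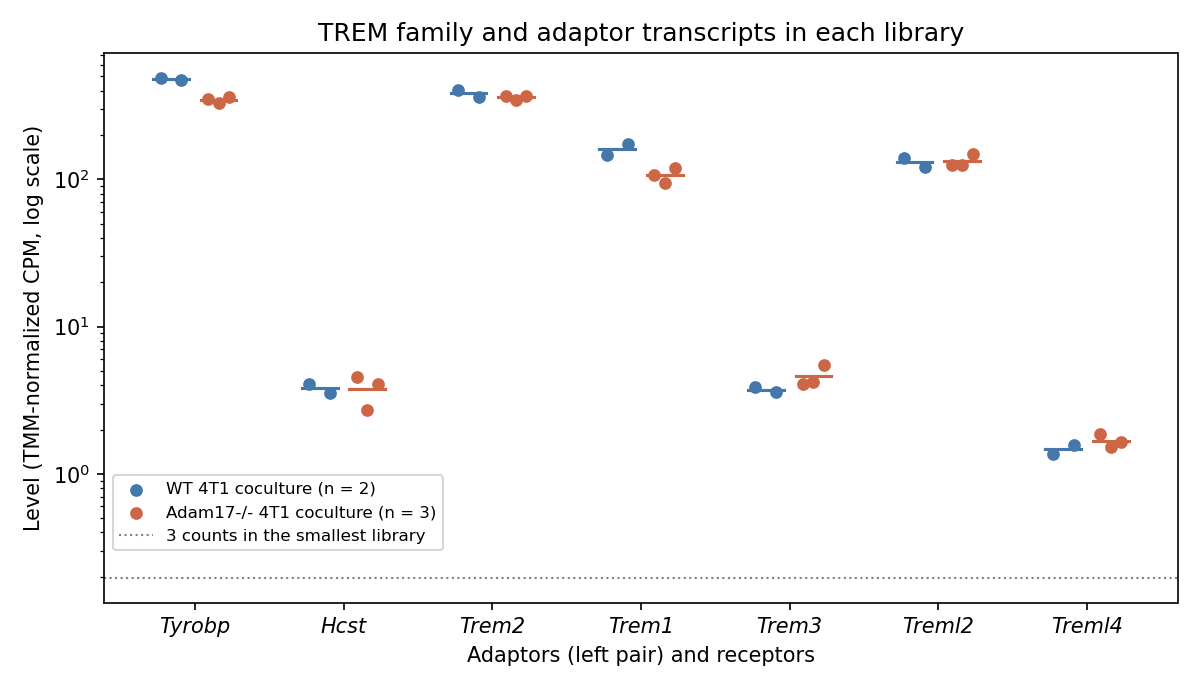
Level of each adaptor and receptor in each library, in TMM-normalized CPM on a log axis (points, libraries; lines, group means; dotted line, 3 counts in the smallest library). *Tyrobp* and *Trem1* were lower in all 3 *Adam17*-/- libraries than in both WT libraries, *Trem3* was higher in all 3 without passing the test, and the other 4 genes overlapped.

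Of the 7 genes, 2 fell in BMDMs cocultured with *Adam17*-/- 4T1 cells, *Tyrobp* and *Trem1*, 0 rose, and 5 did not pass an adjusted p of 0.05 (edgeR's quasi-likelihood test, Benjamini-Hochberg adjustment over all genes tested). Of all genes tested, 31.7% passed, with 16.8% that fell and 14.9% that rose, so that 2 of 7 is not far from the background. The median log2 fold change of the 7 genes was 0.00, against 0.01 over all genes tested. With the further limit of an absolute log2 fold change of 1, none of the 7 passed, where 4.22% of all genes did (0.867% lower and 3.36% higher). The groups did not overlap in 3 of the 7 genes, and in 58.1% of all genes tested.

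*Tyrobp* (Entrez Gene 22177, chr7:30413782-30417582 of GRCm38) had 488 and 471 CPM in the WT libraries and 350, 329 and 365 CPM in the *Adam17*-/- libraries. Every *Adam17*-/- library lay below both WT libraries, and replicates were closer to each other than the groups were. The WT mean was 479 ± 12.3 CPM (SD, n = 2) and the *Adam17*-/- mean 348 ± 18.02 CPM (SD, n = 3), so that the fitted level fell by 27.5%. On the log2 scale the change was -0.46 (SE, standard error, 0.0812, 95% interval -0.64 to -0.28, adjusted p = 0.00332 from edgeR). These levels rested on 4996 to 9325 counts per library.

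Because *Tyrobp* is a myeloid transcript, it can be set beside the markers of myeloid cells. The median log2 fold change was -0.59 for the macrophage markers and 1.69 for the neutrophil and precursor markers. The part of either cell type in the level of *Tyrobp* was not tested. In bulk libraries, fewer cells of a type and less RNA per cell cannot be told apart.

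*Hcst* (23900, chr7:30417712-30419854) was a low transcript. The WT libraries had 78 and 65 counts of it, against 83, 41 and 77 counts in the *Adam17*-/- libraries. That corresponds to 4.08 and 3.52 CPM against 4.54, 2.70 and 4.08 CPM. The groups overlapped, and *Adam17*-/- replicate 2, the library with the smallest total, was the lowest. The log2 fold change was 0.00 (SE 0.231, 95% interval -0.52 to 0.52, adjusted p = 0.997 from edgeR). This interval includes the change of *Tyrobp* near its lower end, so a change of that size in *Hcst* is not excluded.

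*Trem1* (58217, chr17:48232713-48246927), the inflammatory receptor, had 145 and 174 CPM in the WT libraries and 107, 94.6 and 119 CPM in the *Adam17*-/- libraries. All 3 *Adam17*-/- libraries were lower than both WT libraries. The WT mean was 160 ± 20.5 CPM (SD, n = 2) and the *Adam17*-/- mean 107 ± 12.1 CPM (SD, n = 3), and the fitted level fell by 33.2%. Its change was -0.58 on the log2 scale (SE 0.114, 95% interval -0.84 to -0.33, adjusted p = 0.00536 from edgeR). Neutrophils as well as macrophages are known to express *Trem1*. The median log2 fold change was -0.59 for the macrophage markers, of which 6 of 8 fell, and 1.69 for the neutrophil and precursor markers, and the part of either cell type in the level of *Trem1* was not tested.

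*Trem2* (83433, chr17:48346401-48352276), the lipid-binding receptor, had 406 and 362 CPM in the WT libraries and 368, 348 and 371 CPM in the *Adam17*-/- libraries. WT replicate 2 lay within the range of the *Adam17*-/- libraries. Means were 384 ± 30.9 CPM (SD, n = 2) and 362 ± 12.4 CPM (SD, n = 3), with a log2 fold change of -0.08 (SE 0.0847, 95% interval -0.27 to 0.11, adjusted p = 0.470 from edgeR). The sign turned with the scaling, to 0.064 with library size only and to 0.065 in both FPKM fits, and the test was not passed under any of the 13 alternatives to the test, scaling, filter and replicates.

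*Treml2* (328833, chr17:48299390-48312534), a receptor of myeloid and B cells, had 141 and 122 CPM in the WT and 125, 125 and 150 CPM in the *Adam17*-/- libraries. *Adam17*-/- replicates 1 and 2 lay between the WT libraries and replicate 3 above them, so the groups overlapped. The log2 fold change was 0.02 (SE 0.107, 95% interval -0.22 to 0.26, adjusted p = 0.888 from edgeR).

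*Trem3* (58218, chr17:48247677-48258848), a TYROBP-coupled receptor, had 3.87 and 3.57 CPM in the WT and 4.05, 4.21 and 5.51 CPM in the *Adam17*-/- libraries. All 3 *Adam17*-/- libraries lay above both WT libraries, although the gap between the groups was small against the spread among them. Its log2 fold change of 0.31 (SE 0.197, 95% interval -0.14 to 0.75, adjusted p = 0.259 from edgeR) did not pass.

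*Treml4* (224840, chr17:48264200-48275607), known from splenic macrophages and dendritic cells, was the lowest of the genes. It had 26 and 29 counts in the WT and 34, 23 and 31 counts in the *Adam17*-/- libraries, all above the floor. In CPM this was 1.36 and 1.57 against 1.86, 1.51 and 1.64, and the groups overlapped. The log2 fold change was 0.20 (SE 0.266, 95% interval -0.40 to 0.79, adjusted p = 0.603 from edgeR), an interval wide enough to hold either a fall or a rise of moderate size.

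Within a library, the ratio of adaptor to receptor transcripts does not depend on how libraries are scaled. The FPKM ratio of *Tyrobp* to *Trem2* was 2.40 and 2.59 in the WT libraries, against 1.90, 1.89 and 1.96 in the *Adam17*-/- libraries, with means of 2.49 ± 0.137 (SD, n = 2) and 1.91 ± 0.0375 (SD, n = 3). Set against the sum of *Trem1*, *Trem2* and *Trem3*, which encode TYROBP-coupled receptors, *Tyrobp* had ratios of 2.11 and 2.20 against 1.71, 1.70 and 1.74. *Tyrobp* was thus lower relative to *Trem2*, and to a sum of which *Trem2* is the largest part, in every *Adam17*-/- library. Relative to *Trem1* alone it was not, with ratios of 19.2 and 15.4 against 18.8, 19.9 and 17.5 that overlapped between groups (exact two-sided permutation p = 0.6). Relative to *Fcer1g*, the gene of the Fc receptor gamma chain and the other ITAM adaptor of macrophages, the ratio was 1.68 and 1.54 against 1.31, 1.30 and 1.37. The balance of the receptors also differed, since the ratio of *Trem2* to *Trem1* was 8.01 and 5.96 in the WT and 9.90, 10.6 and 8.95 in the *Adam17*-/- libraries. In the ratios of *Tyrobp* to *Trem2*, to the sum and to *Fcer1g* and of *Trem2* to *Trem1* the groups did not overlap, and each had an exact two-sided permutation p of 0.2, the smallest that 2 samples against 3 allow. The ratio of *Tyrobp* to *Hcst* overlapped between groups, at 88.6 and 99.1 against 57.1, 90.1 and 66.3 (exact two-sided permutation p = 0.4).

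**Figure D2:**
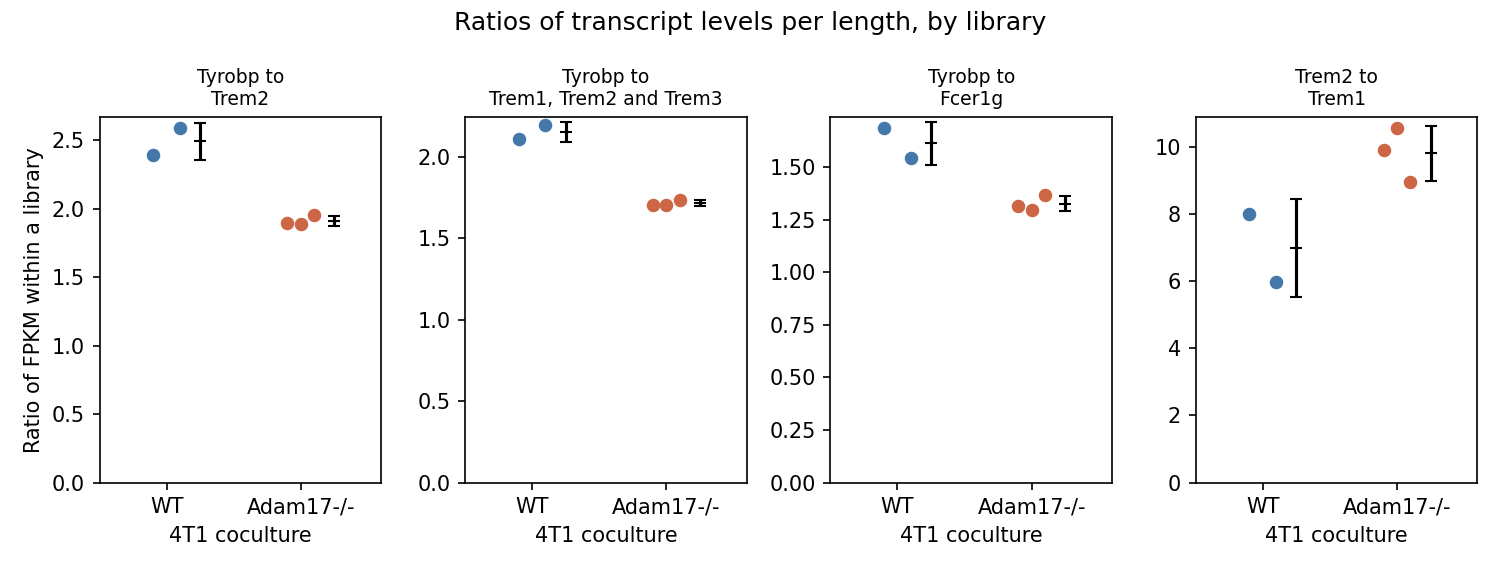
FPKM ratios within each library (points; black marks, mean and SD; n = 2 WT and 3 *Adam17*-/- libraries; all axes start at 0). The 3 plotted ratios of *Tyrobp* to *Trem2*, to the summed receptors and to *Fcer1g* were lower in every *Adam17*-/- library, and the ratio of *Trem2* to *Trem1* was higher.

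*Trem2* was the one gene among the more abundant of the 7 with more than 1 transcript in the files. The longer transcript, with the bases printed in capitals, held 16.4% and 17.1% of the *Trem2* counts in the WT libraries, against 17.3%, 15.1% and 15.9% in the *Adam17*-/- libraries. The means, 16.7% ± 0.491 (SD, n = 2) and 16.1% ± 1.14 (SD, n = 3), differed by less than the spread between replicates (exact two-sided permutation p = 0.6). These shares come from reads that the quantification divided between transcripts, so the spread between libraries is given in place of a counting interval. *Treml4* had 4 listed transcripts, but which of them held the counts changed from library to library at 23 to 34 counts, so that no share is given. The other 5 genes had 1 listed transcript each.

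The 5 receptor genes lie together on chromosome 17 with *Treml1*, in a cluster that spans 134 kb. Within the cluster and 50 kb to either side, the annotation has 12 genes, of which 9 were tested. Of these, 2 fell and 1 rose, where 16.8% of all genes tested fell and 14.9% rose. The 2 genes that fell, *Trem1* and *B430306N03Rik*, are separated by *Trem3*, *Treml4* and *Treml2*, which did not pass. *B430306N03Rik*, a protein-coding gene between *Treml2* and *Trem2*, went from 366 and 282 CPM in the WT to 181, 202 and 200 CPM in the *Adam17*-/- libraries, or by -0.74 on the log2 scale (SE 0.113, adjusted p = 0.00172 from edgeR). Past the far end of the cluster, *Nfya* (log2 fold change -0.25, adjusted p = 0.0743) and *Oard1* (0.31, adjusted p = 0.170) did not pass. Of the remaining 3, 2 noncoding genes (*Gm52308* and *Gm52307*) and a pseudogene (*Gm18679*), no count is listed.

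*Treml1*, which encodes a receptor known from megakaryocytes and platelets, was the one gene of the cluster that rose. It had 15.2 and 16.3 CPM in the WT libraries and 27.1, 29.9 and 36.8 CPM in the *Adam17*-/- libraries, and the groups did not overlap. The log2 fold change was 0.99 (SE 0.140, adjusted p = 0.00131 from edgeR). A noncoding transcript, NR_110338, held most of these counts, with 77.3% and 66.0% in the WT and 68.7%, 76.4% and 56.5% in the *Adam17*-/- libraries. The list of 7 megakaryocyte and platelet markers, which includes *Treml1*, is to be read without it: of the other 6, 5 rose, where 14.9% of all genes did. With *Treml1*, the summed level of the list was 66.3 to 70.2 CPM in the WT and 108 to 173 CPM in the *Adam17*-/- libraries. Their part in the level of *Treml1* was not tested.

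The adaptor genes are neighbors on chromosome 7, on opposite strands, and their 3′ ends are 129 bp apart. Of 11 genes there and within 50 kb, 5 were tested, and *Tyrobp* was the 1 that passed, where 31.7% of all genes tested did. *Nfkbid* (log2 fold change 0.01, adjusted p = 0.949), *Aplp1* (-0.37, adjusted p = 0.213) and *Nphs1* (0.77, adjusted p = 0.131) did not. *Kirrel2*, the noncoding genes *Gm42376*, *Gm32029*, *Gm45979* and *Nphs1os* and the pseudogene *Gm30646* have no count listed.

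**Figure D3:**
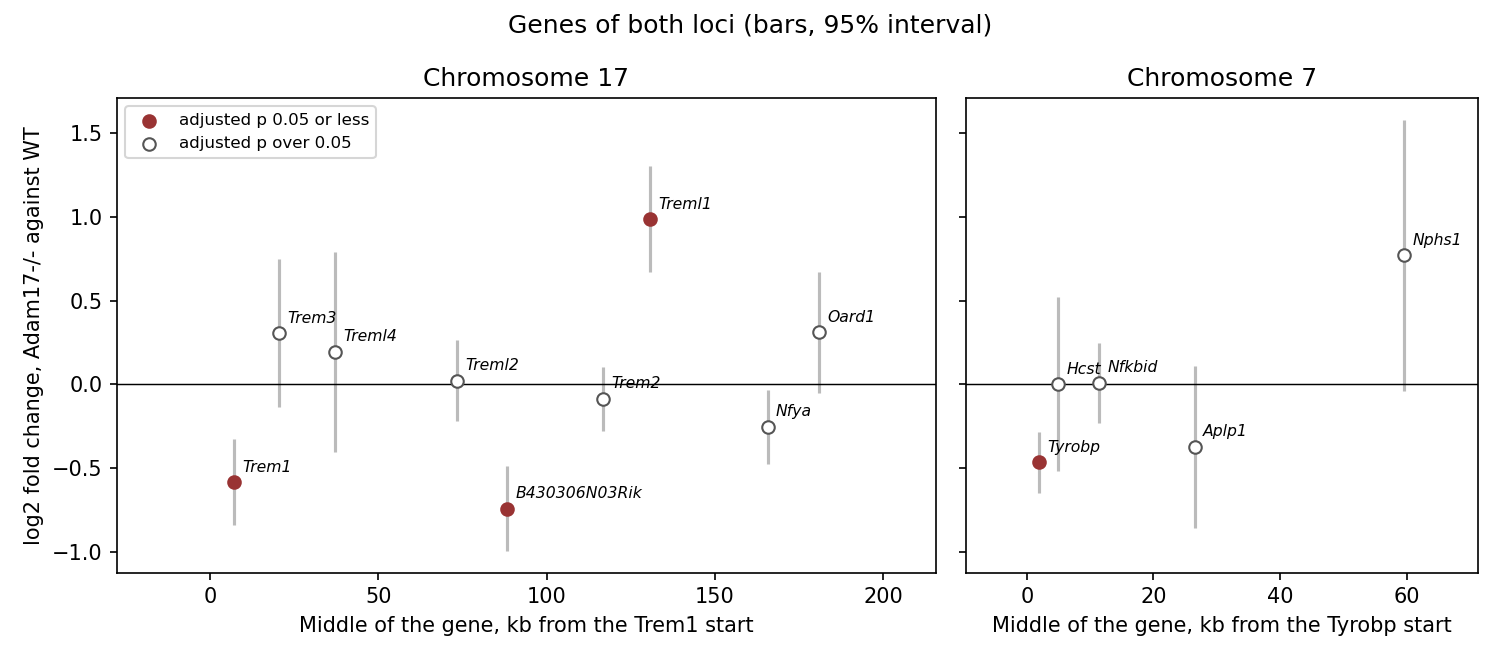
Log2 fold change of each tested gene of both loci (y axis; bars, 95% interval) against the distance of its middle from the start of *Trem1* (left) or *Tyrobp* (right) in kb. *Trem1*, *B430306N03Rik* and *Tyrobp* lie below 0 and *Treml1* above it as the genes that passed, with genes that did not pass between them.

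The genes with a pattern over the 5 libraries most like that of a changed member were found by the root mean square distance of centred log2 CPM, among 8470 genes with a mean of 10 CPM or more. For *Trem1* they were *Spred2* (0.0424), *Dip2c* (0.0623) and *Prune2* (0.0649), where the median gene was at 0.311 and *Tyrobp* at 0.128. For *Tyrobp* they were *Ywhah* (0.0157), *Cct7* (0.0185) and *Wwc2* (0.0193), where the median gene was at 0.232 and *Trem2* at 0.191. These distances describe 5 libraries in 2 groups and carry no test.

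Around the TREM receptors and adaptors, 89 genes of the same signaling route were listed by role, and 77 of them were tested. Of these, 9 rose, 25 fell and 43 did not pass, with a median log2 fold change of -0.16. The shares over all genes tested, 14.9% higher and 16.8% lower, are the background for this count and for those of the lists that follow, and no list was tested against them. The split depended on the scaling, with 13 genes higher and 14 lower when libraries were scaled by size only. Over all genes, the same setting moved the share of higher calls from 46.9% to 73.7% and the median log2 fold change to 0.16. The 34 calls became 20 with the replicate number as a block and 21 without *Adam17*-/- replicate 1. In these settings, the 3983 calls over all genes became 2342 and 2015. The 13 alternatives are all those run other than the fold limit, with which 7 of the 34 calls were left. Of the 34 calls, 16 held under all 13, of which the 2 that leave out a WT replicate take the spread from the *Adam17*-/- libraries alone.

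**Figure D4:**
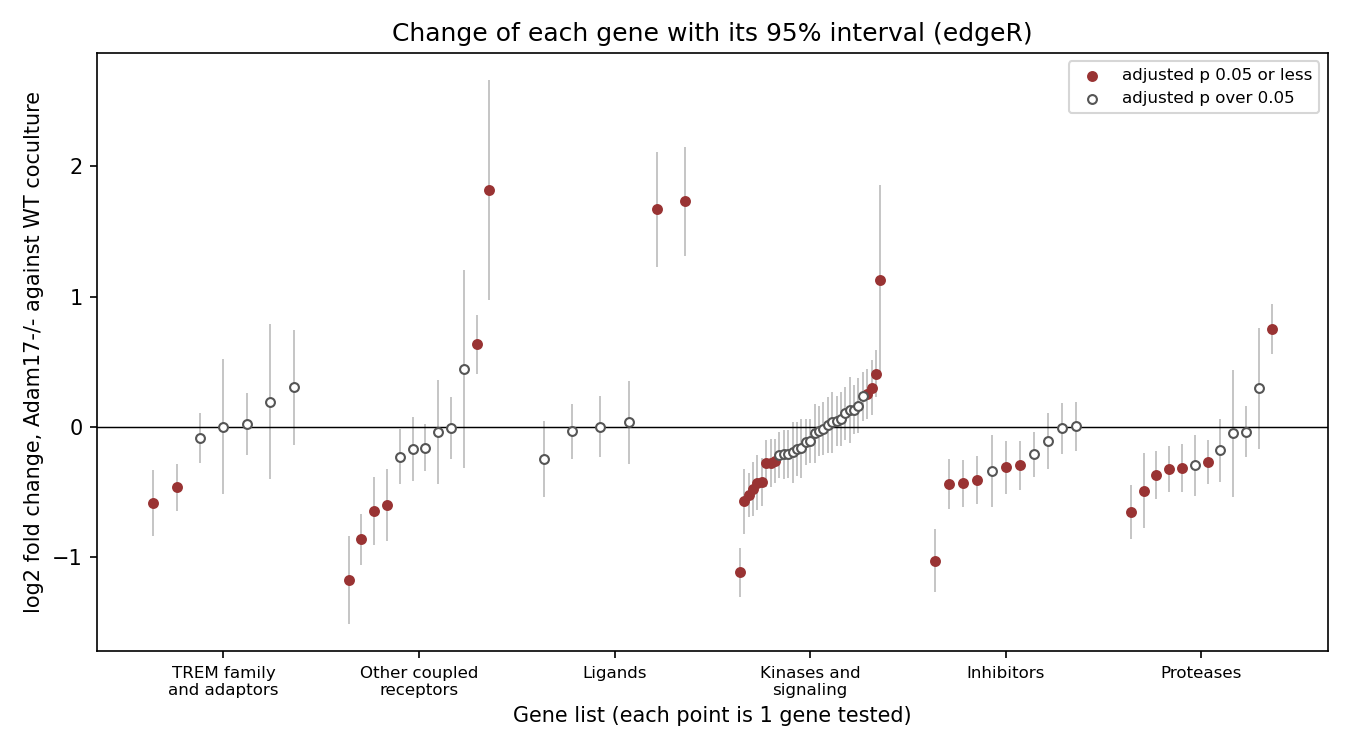
Log2 fold change of each tested gene, by role (points; bars, 95% interval from edgeR; filled, adjusted p of 0.05 or less). The 7 TREM family and adaptor genes are on the left, where *Trem1* and *Tyrobp* are filled; in the inhibitors, all 6 filled points lie below 0.

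Among other ITAM adaptors, *Fcer1g* was the one at a level near that of *Tyrobp*. It had 344 and 363 CPM in the WT and 317, 301 and 316 CPM in the *Adam17*-/- libraries. Each *Adam17*-/- library was lower, but the log2 fold change of -0.18 (SE 0.0779, adjusted p = 0.102 from edgeR) did not pass. *Cd79a* and *Cd79b*, of the B cell receptor, did not pass either, and the T cell adaptors *Cd247*, *Cd3e* and *Cd3d* were too low to be tested.

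Receptors outside the family were listed as known or possible partners of TYROBP or HCST, and the coupling of each was not checked here. Of 16 listed, 12 were tested, 2 rose and 4 fell. Their median log2 fold change was -0.16, and all 6 calls held under the 13 alternatives. *Pilrb1* and *Pilrb2*, paired immunoglobulin-like receptors, fell, with log2 fold changes of -1.17 (SE 0.151) and -0.64 (SE 0.116). *Cd300ld*, an activating receptor of myeloid cells, fell from 117 ± 4.55 to 64.6 ± 4.49 CPM. *Plxna1*, a semaphorin receptor that associates with TREM2 and TYROBP, had the highest CPM of the list. It had 510 and 398 CPM in the WT and 286, 339 and 275 CPM in the *Adam17*-/- libraries. CPM is not scaled to transcript length. In FPKM, *Cd300lb* was higher than *Plxna1*, at means of 101.5 against 47.4 in the WT and 100.7 against 34.7 in the *Adam17*-/- libraries. *Plxna1* fell by 0.60 on the log2 scale (adjusted p = 0.00676 from edgeR). *Cd200r4*, a CD200 receptor family member, rose from 29.8 ± 2.44 to 46.2 ± 3.11 CPM, and *Cd226* rose from 1.81 ± 0.419 to 6.42 ± 2.60 CPM. *Cd226* encodes an adhesion receptor that signals through its own tail and stands on the list without being a known partner of either adaptor, so that *Cd200r4* is the 1 riser of the list apart from it. *Pilrb*, *Cd300* and *Cd200r* genes have close copies, so reads may be divided wrongly among them. *Clec5a*, a TYROBP-coupled lectin, had a log2 fold change of -0.01 (adjusted p = 0.961).

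Of 9 ligands listed for these receptors, 6 were tested, 2 rose and 0 fell, where 14.9% of all genes tested rose and 16.8% fell. *Clu*, the apolipoprotein clusterin, which binds TREM2, rose from 5.65 and 5.41 CPM in the WT to 14.9, 17.6 and 22.5 CPM in the *Adam17*-/- libraries, or by 1.73 on the log2 scale (SE 0.187, adjusted p = 0.000485 from edgeR). *Pglyrp1*, a peptidoglycan recognition protein that binds TREM1 and is stored in neutrophil granules, rose from 2.41 and 2.06 CPM to 7.39, 7.96 and 6.09 CPM. Its log2 fold change was 1.67 (SE 0.197, adjusted p = 0.000648), beside the median of 1.69 for the neutrophil and precursor markers. Both calls held under the 13 alternatives. *Apoe*, a TREM2 ligand and the most abundant gene of the list, did not pass at a log2 difference of -0.25 (adjusted p = 0.173), nor did *Hmgb1* and *Lgals3*, at 0.00 and -0.03.

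Of 34 kinases and signaling proteins, 33 were tested, 4 rose and 9 fell, with a median log2 fold change of -0.11, where 31.7% of all genes passed. *Syk*, the kinase that binds the ITAM, had 623 and 542 CPM in the WT and 616, 654 and 607 CPM in the *Adam17*-/- libraries. Its groups overlapped and the log2 fold change of 0.10 (SE 0.0904, adjusted p = 0.405 from edgeR) did not pass, although it did with library size only and in the FPKM fits. *Plcg2*, the phospholipase downstream of SYK, fell from 317 ± 10.7 to 221 ± 3.46 CPM (log2 fold change -0.53, adjusted p = 0.00136). *Nfatc2*, a calcium-dependent transcription factor, fell from 167 ± 8.42 to 77.2 ± 4.07 CPM (-1.11, adjusted p = 0.000159). Both calls held under all 13 alternatives. Calls that did not were those of *Lat* (1.13), *Vav3* (-0.57), *Pik3cg* (-0.43), *Nfatc1* (-0.42) and *Src* (0.41), with *Pik3ca*, *Lcp2*, *Akt2*, *Lyn* and *Malt1* at smaller log2 fold changes. The calls of *Pik3ca*, *Lcp2*, *Akt2*, *Lyn* and *Malt1* were lost with the replicate number as a block and without any one of the *Adam17*-/- replicates. That of *Pik3ca* was also lost without WT replicate 1, and those of *Nfatc1* and *Src* were lost with the block alone. With library size only and in the FPKM fits, *Lcp2*, *Akt2*, *Lyn* and *Pik3cg* did not pass, nor did *Lcp2*, *Akt2* and *Lyn* with upper quartile factors, and *Malt1* did not pass with DESeq2 or with no filter on low counts. *Pik3cg* also lost its call without *Adam17*-/- replicate 1 or 2, *Lat* without *Adam17*-/- replicate 2 or 3 or WT replicate 2, and *Vav3* in the FPKM fits. *Lat*, the adaptor of T cells, was low, at 0.866 CPM in WT replicate 2. *Ctnnb1*, the gene of beta-catenin, had the highest level of the list, and its log2 fold change of 0.13 (adjusted p = 0.240) did not pass, although it did with library size only and in the FPKM fits.

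Of 11 inhibitors of ITAM signaling tested, 6 fell, 0 rose and 5 did not pass, with a median log2 fold change of -0.31. Over all genes, 16.8% fell and 14.9% rose. *Dok2*, a docking protein, fell from 125 and 101 CPM in the WT to 58.7, 51.1 and 56.2 CPM in the *Adam17*-/- libraries (log2 fold change -1.03, SE 0.107, adjusted p = 0.000430 from edgeR). Its relative *Dok1* (-0.43) and *Sh2b3* (-0.44), the gene of the adaptor LNK, fell less. These 3 calls held under the 13 alternatives. *Inpp5d* encodes SHIP1, a lipid phosphatase known to bind TYROBP, and had the highest CPM of the list. In FPKM, *Dok3* and *Ptpn6* were higher, at means of 147 and 128 against 119 in the WT libraries. In the *Adam17*-/- libraries they were at 130 and 116 against 99.2. *Inpp5d* fell from 613 ± 38.1 to 463 ± 13.8 CPM (log2 fold change -0.41, adjusted p = 0.00594 from edgeR), a call lost with the replicate number as a block. The calls of *Cblb* (-0.31) and *Ptpn6* (-0.29), the gene of the phosphatase SHP-1, were lost with upper quartile factors, with library size only and in the FPKM fits. They were also lost with the replicate block and without any one of the *Adam17*-/- replicates, and that of *Cblb* also without WT replicate 1.

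Proteases that cut TREM receptors or the stub that is left in the membrane were listed with their partners. Of 12 tested, 1 rose and 6 fell, with a median log2 fold change of -0.28, beside the same background of 14.9% and 16.8%. *Adam10*, one of the sheddases of TREM2, had the highest mean CPM of the list, with 368 and 455 CPM in the WT and 353, 343 and 394 CPM in the *Adam17*-/- libraries. It did not pass (log2 fold change -0.18, adjusted p = 0.227 from edgeR). In FPKM, *Ncstn* was higher than *Adam10*, at means of 115 against 85.0 in the WT and 98.3 against 82.9 in the *Adam17*-/- libraries. *Adam17*, the other sheddase of TREM2, fell (-0.32, adjusted p = 0.0129 from edgeR). Its call was lost with library size only, in the FPKM fits, with the replicate number as a block and without any one of the *Adam17*-/- replicates. *Mmp9*, a matrix metalloproteinase reported to release soluble TREM1, fell from 368 ± 22.9 to 234 ± 19.2 CPM (-0.65, adjusted p = 0.00128), a call that held under the 13 alternatives. *Rhbdf2* (-0.49), which encodes the iRhom that carries ADAM17 to the surface, lost its call without *Adam17*-/- replicate 1 or 3, with library size only and in the FPKM fits. Of the 7 gamma-secretase subunits, the complex that cleaves the TREM2 stub, 3 fell, among them *Ncstn* (-0.37) and *Aph1a* (-0.32), and *Aph1c* (0.75) rose. The call of *Aph1c* held under the 13 alternatives. *Ncstn* lost its call with library size only, with the replicate block and without *Adam17*-/- replicate 1. *Aph1a* lost its call with library size only, in the FPKM fits, with the replicate block and without any one *Adam17*-/- replicate. *Aph1c* has a close copy in *Aph1b*, so the division of reads between them is uncertain.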

How the data were processed

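The authors sequenced poly(A) libraries on a BGISEQ-500, aligned reads to GRCm38 with HISAT and quantified RefSeq transcripts with Bowtie2 and RSEM (versions not given in the sources used here). They deposited an expected count per transcript, not normalized, and FPKM, normalized to transcript length and library size, listing no transcript under 0.01 FPKM. Expected counts were summed per Entrez gene and rounded. WT and *Adam17*-/- libraries were compared by the quasi-likelihood test of edgeR 4.0.16 (R 4.3.3), after TMM normalization and filterByExpr and with no covariates, and p-values were adjusted over 12576 genes. Symbols came from RefSeq for 17016 of 17058 gene IDs. FPKM sums served the order of the members and the ratios between genes. The strand setting of the counting is not known.

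Alternatives were scaling by upper quartile factors or by library size only, DESeq2 1.42.0, other filters on low counts, limma 3.58.1 on log2(FPKM + 0.1) and log2(FPKM + 1), a fold limit, the replicate number as a block and each replicate left out. Scripts were tested on simulated data. Ratios were tested by exact permutation with scipy 1.17.1.

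The members and gene lists were chosen with earlier results of these data known. Named were all members, called genes of each list (at most 8 of them with values) and its most abundant gene in CPM, all genes within 50 kb of the loci, and the 3 nearest patterns. *Clec5a*, *Cd300lb*, *Syk*, *Dok3*, *Hmgb1*, *Lgals3*, *Cd79a*, *Cd79b*, *Cd247*, *Cd3e*, *Cd3d* and single markers were named after their values were seen. Some called genes of the lists enter the counts but are not reported here by name.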

Additional observations from a re-analysis of the deposited data

How the results depend on the processing

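*Trem1* and *Tyrobp*, the same genes, passed as lower under all 13 alternatives to the test, scaling, filter and replicates, with log2 fold changes of -0.71 to -0.43 (adjusted p at most 0.0369) and -0.50 to -0.32 (at most 0.0306), and 0 of the 7 genes passed with the fold limit. *Treml1* kept a log2 fold change of 0.85 to 1.13 and *B430306N03Rik* its call. Signs near 0 turned. *Hcst* was at -0.0098 with DESeq2, -0.089 with the replicate block, -0.10 without WT replicate 2, and -0.13 and -0.035 without *Adam17*-/- replicates 1 and 3, and reached 0.20 without replicate 2. *Trem2* was at 0.064 with library size only and at 0.065 and 0.065 on log2(FPKM + 0.1) and log2(FPKM + 1). *Treml2* was at -0.066 with the replicate block and at -0.079 to 0.13 with 1 replicate left out (-0.048 without *Adam17*-/- replicate 3), and *Nfkbid* at -0.14 without WT replicate 2 and 0.17 without WT replicate 1. None of these passed. Over all genes, 3983 calls became 2342 with the replicate block, 531 with the fold limit and 2015 to 5400 with 1 replicate left out. Pathway calls, 34, became 20 with the block, 7 with the fold limit and 21 to 45 with 1 replicate left out (fewest without *Adam17*-/- replicate 1). *Inpp5d*, *Nfatc1* and *Src* lost their calls with the block alone, and *Adam17*, *Akt2*, *Aph1a*, *Cblb*, *Lcp2*, *Lyn*, *Malt1*, *Ncstn*, *Pik3ca* and *Ptpn6* with the block among others. With a WT replicate left out, the spread comes from the *Adam17*-/- libraries alone, and the lone WT library is assumed to vary like them, so calls gained there are not read. The share of higher calls, 46.9%, was 57.9% with upper quartile factors, 73.7% with library size only, and 74.2% and 73.9% in the FPKM fits. The block rests on a shared number only, since deviations of same-numbered libraries correlated at -0.124 and -0.0504. From counts per kilobase, the ratio of *Tyrobp* to *Trem2* was 2.35 in the WT and 1.80 in the *Adam17*-/- libraries. The results of *Hcst*, *Trem3* and *Treml4* rest on only 23 to 104 counts per library. The causes of these differences were not tested.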
